A study of Schizosaccharomyces pombe with 2 samples.

Results

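The 265 introns described here are the annotated *Schizosaccharomyces pombe* introns at both ends of the size range of a lariat sequencing library. They were chosen by length alone, as those listed with fewer than 80 nt (105 introns of 104 genes, 53 to 79 nt) or more than 200 nt (160 introns of 158 genes, 201 to 837 nt), out of 1292 distinct introns. The other 1027 introns, of 80 to 200 nt, serve as the comparison. The reads come from fission yeast of the 972 h- strain with the delta-dbr1 genotype, and every sample carries that deletion, so no strain with the enzyme was compared. RNA of cultures under 41 conditions was mixed before the gels, so conditions cannot be told apart. Circles were cut out after two-dimensional gel electrophoresis, whose second gel held 15% acrylamide for the short run and 20% for the long one. Both tables used here bear the name of the short run, which is 1 library without a replicate. Values are therefore given as counts with exact 95% intervals that leave out variation between libraries. No test between groups of introns was made.

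When an intron is spliced out, its 5′ end is joined to an adenosine near its 3′ end, the branch point, and the intron leaves as a lariat, a circle with a tail. The debranching enzyme encoded by dbr1 opens that circle, after which the RNA is degraded. In cells without it lariats persist, and a gel that separates circles from linear RNA can enrich them. Most fission yeast introns are far shorter than those of animals, and many genes have several. The level of an intron circle depends on how often its gene is transcribed and spliced, so introns of 1 gene give a comparison in which that level is largely shared.

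Reads across the lariat joint place the branch site, and for 42 of the short introns such reads were listed. The following lines give the last 30 bases of the 6 introns under 80 nt with most branch reads, 5′ to 3′, read at the deposited positions in the ASM294v3 assembly, with the 7-nt sequence that the authors list as the leading branch position in capitals.
SPCC1827.03c intron 1, chr3:2380337-2380366, minus strand: ctcactttacatttGACTAACatatacaag
rps29 intron 2, chr2:516697-516726, plus strand: ctgtttccgacagcaTATTAACtagtttag
ubp5 intron 2, chr3:1492155-1492184, minus strand: atttacattcatgtTACTAACgggtcatag
SPCC1450.10c intron 1, chr3:1747818-1747847, minus strand: ttttttttgttcaaccAACTAACatgatag
apm1 intron 3, chr2:1911189-1911218, plus strand: caacgttttctaaTATTAATttctcgttag
rpl3602 intron 1, chr2:3153769-3153798, plus strand: attttgtgaatgaaTACTAACaggttttag

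Branch reads were listed for only 14 of the 160 long introns. Their leading branch position lay either close to the 3′ end or at scattered interior distances of 59 to 273 nt, so they are shown in 2 sets. In 4 introns it lay close to the 3′ end, and their last 30 bases are given in the same way.
fps1 intron 2, chr1:1339376-1339405, minus strand: ataacacatGACTAACtgctgtttttgtag
uvi15 intron 2, chr2:539885-539914, plus strand: ctttttctcttTACTAACgactgtttttag
alo1 intron 1, chr1:1885877-1885906, minus strand: ttcgcttgcTTCTAACattattatttttag
SPCC830.09c intron 1, chr3:2197854-2197883, minus strand: tttgaaaattcttTACTAATtttgaaatag

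In 10 long introns the leading position lay in the interior. The following windows of 30 bases surround it in the 3 that had the most branch reads.
trs33 intron 1, chr1:181842-181871, minus strand: aaatagaattcTACTAACacaaattacttt
SPAC11H11.03c intron 2, chr1:4779882-4779911, minus strand: ttttgtttggtATCTAATtccggtagttat
pex7 intron 1, chr1:4723153-4723182, plus strand: taccgaactatAACTAAActaaattcaaat

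Both length classes had a smaller share of reference introns listed than introns of 80 to 200 nt, and the short one had the smallest. The reference annotation holds 3794 mRNA introns under 80 nt, and 102 of them (2.69%) had a listed peak (exact binomial 95% interval 2.20 to 3.25). Over 200 nt it was 156 of 342 introns, or 45.6% (40.2 to 51.1), against 1000 of 1117 introns of 80 to 200 nt, or 89.5% (87.6 to 91.3). Below 60 nt, where 2968 of those 3794 short introns fall, 4 were listed (0.135%), while from 60 to 79 nt 98 of 826 were (11.9%, 9.74 to 14.3). On the short side the listed share rose with length, with 2.05% at 60 to 64 nt, 7.44% at 65 to 69 nt, 12.5% at 70 to 74 nt and 42.7% at 75 to 79 nt. At 78 nt it was 15 of 29 introns, at 79 nt 16 of 25, and just past the limit 16 of 30 at 80 nt and 14 of 20 at 81 nt. The limit at 80 nt therefore fell on a slope and not at an edge. On the long side the share was 65.6% in introns of up to 220 nt and lay between 33.3% and 43.4% in each longer class. Every reference intron of 199, 200, 201 and 202 nt was listed, 15 in all, so no drop stood at 200 nt itself.

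**Figure D1:**
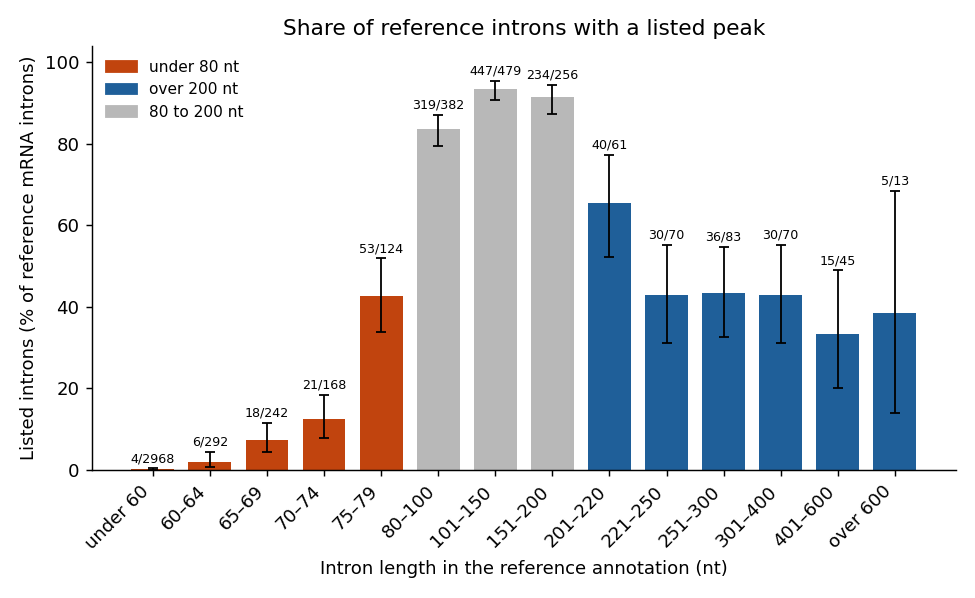
Share of reference mRNA introns that have a listed peak (vertical axis, %) by intron length (horizontal axis, nt). Bars show the share, error bars the exact binomial 95% interval, and the numbers above give listed over all introns. The share climbs through the classes under 80 nt to 42.7% and stays at 65.6% or less in every class over 200 nt.

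The listed members also had few reads. Introns under 80 nt had a median of 18 peak reads (95% interval of the median 13 to 29, quartiles 9 and 66) and introns over 200 nt a median of 27.5 (22 to 38, quartiles 13 and 89.75), against 883 (744 to 1158, quartiles 141 and 4271.5) for introns of 80 to 200 nt. Divided by length, the medians were 24.0 reads per 100 nt on the short side and 9.38 on the long side, against 774 in between. Fewer than 10 reads were counted in 30 short introns (28.6%) and 23 long introns (14.4%), against 31 introns of 80 to 200 nt (3.02%). At least 1000 reads were counted in 4 short and 8 long introns, against 498 introns of 80 to 200 nt (48.5%). The short side held 19968 reads, or 0.215% of the table's 9296300, and the long side 27727, or 0.298%. The lowest count in the table is 5, so an intron with fewer reads could not appear, and the medians describe listed introns alone. Fewer circles and a lower recovery of each circle cannot be told apart in these counts.

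**Figure D2:**
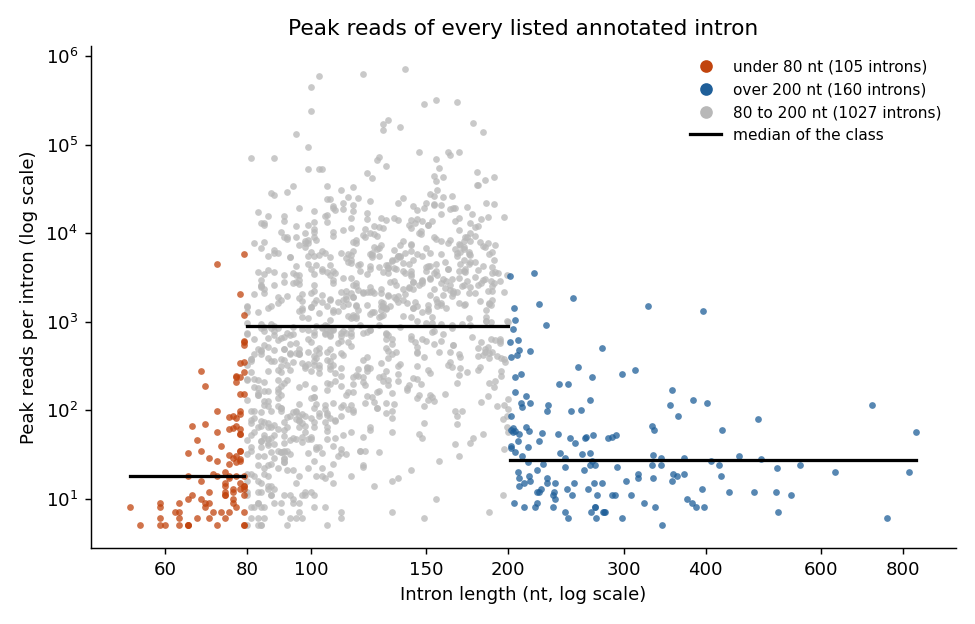
Peak reads (vertical axis, log scale) of each of the 1292 listed introns against its length (horizontal axis, nt, log scale). Points are single introns and black lines mark the class medians of 18, 27.5 and 883 reads. Few introns under 80 or over 200 nt reach 1000 reads.

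Within each side, reads moved with length in opposite directions. Under 80 nt, longer introns had more reads, with a Spearman rank correlation of 0.502 and a Pearson's r of log10 values of 0.455 across the introns of this side. The median was 7 reads below 60 nt, 6.5 at 60 to 64 nt, 13.5 at 65 to 69 nt, 14 at 70 to 74 nt and 35 at 75 to 79 nt. The rise was not particular to the short side. Across the 1027 introns of 80 to 200 nt the rank correlation was 0.362 and r was 0.348. Medians there were 213.5 reads at 80 to 100 nt, 1326 at 101 to 150 nt and 2443 at 151 to 200 nt. Over 200 nt, the rank correlation was -0.305 and r was -0.249 across 160 introns. The decline lay at the near end, with a median of 61.5 reads up to 220 nt and medians of 19 to 24 reads in the 5 classes beyond. These coefficients are descriptions across introns of 1 library, which share its gel and its depth and are not replicates. At the limits the medians were 86 reads for the 16 introns of 79 nt and 219 for the 17 of 80 nt, while the 4 introns of 200 nt had 57 to 993 reads, and those of 201 nt, in SPAC1F5.03c and alo1, had 3258 and 588.

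A few host genes carried the reads of the short side. Intron 1 of SPCC1827.03c (pcs60), annotated as an acetyl-CoA ligase, had 5748 reads (95% Poisson interval 5600 to 5899), or 7276 reads per 100 nt. It is 79 nt long, lies in the 5′ untranslated region (chromosome 3, 2380337 to 2380415, minus strand) and alone held 28.8% of the reads of its side. Intron 2 of rps29, a small ribosomal subunit protein gene, followed with 4452 reads (4322 to 4585) or 6183 per 100 nt, although it is only 72 nt long (chromosome 2, 516655 to 516726, plus strand). No other short intron of 74 nt or less passed 274 reads. Intron 1 of SPCC1450.10c (nar1), annotated as an iron hydrogenase, had 2031 reads (1944 to 2121) at 78 nt. Intron 2 of ubp5, a ubiquitin hydrolase gene, had 1195 reads (1128 to 1265) at 79 nt. The 3 highest introns held 61.3% of the side's reads and the 10 highest held 80.8%.

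The next short introns belonged to genes of many kinds. Intron 1 of elp2, a subunit of the Elongator complex that modifies tRNA, had 604 reads. Intron 1 of SPAC8C9.11 (fra2), annotated as an iron sensor, had 585 reads. Intron 2 of pkp1, the kinase of pyruvate dehydrogenase, had 551 reads. Those 3 introns are 79 nt long, as is intron 1 of ubc4, a ubiquitin-conjugating enzyme gene, with 353 reads. Intron 1 of scd1 had 340 reads at 78 nt. Intron 1 of btb3, a ubiquitin ligase adaptor gene, had 274 reads at 68 nt and was the highest intron under 70 nt, ahead of intron 1 of the ribosomal protein gene rpl2702 with 189 reads at 69 nt.

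At the other end, 10 short introns had 5 reads, the lowest count of the table. The first 5 of them in the file were intron 1 of mug8, of dad4 (the kinetochore's DASH complex) and of srs2 (a DNA helicase), intron 2 of rbx1 (the RING subunit of cullin ubiquitin ligases) and intron 1 of SPAC24B11.12c (dnf2, a phospholipid-transporting ATPase). A count of 5 has a Poisson interval of 1.62 to 11.7. The 6 introns under 60 nt were intron 1 of SPCC825.05c (pwi1, a splicing coactivator) with 8 reads at 53 nt, intron 2 of SPBC21.03c with 5 reads at 55 nt, and 4 introns of 59 nt. Those were intron 1 of the non-coding RNA SPNCRNA.627 with 9 reads, intron 3 of vps4 (an ATPase of endosomal sorting) with 8, intron 1 of tmp1 (thymidylate kinase) with 6 and intron 1 of dad4 with 5. The introns of SPBC21.03c and SPNCRNA.627 do not equal an intron of the reference annotation. None of these 6 had more than 9 reads.

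Reads on the long side were spread over more genes. Intron 1 of rps1001, a small ribosomal subunit protein gene, had 3579 reads (3463 to 3698) or 1634 per 100 nt at 219 nt (chromosome 1, 3020011 to 3020229, minus strand). Intron 1 of SPAC1F5.03c, annotated as an FAD-dependent oxidoreductase, had 3258 reads (3147 to 3372) at 201 nt, the shortest length of the side. Intron 1 of trs33, a subunit of the TRAPP vesicle tethering complex, had 1851 reads (1768 to 1937) at 251 nt. Intron 2 of ptf1 had 1593 reads at 223 nt. Intron 1 of pex7, the receptor that brings a class of enzymes into peroxisomes, had 1521 reads (1446 to 1599) at 327 nt. Intron 2 of rps27 had 1427 reads at 204 nt, and intron 1 of ubc7, a ubiquitin-conjugating enzyme gene, had 1334 (1263 to 1408) at 396 nt. Those of pex7 and ubc7 were the only introns over 300 nt past 285 reads. The 3 highest held 31.3% of the reads of the side and the 10 highest held 62.5%.

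The remaining 3 of the 10 highest were intron 2 of fps1 with 1032 reads at 205 nt, intron 1 of mod5 with 914 at 228 nt and intron 1 of SPCC830.09c (pop5) with 832 at 203 nt. The gene fps1 encodes a prenyl transferase, mod5 a cortical anchor of the polarity protein Tea1, and pop5 a subunit of RNase P. The lowest long intron was intron 1 of SPAC694.04c with 5 reads at 343 nt. The introns listed for tom20 (mitochondrial import), nse2 (the SUMO ligase of the Smc5-6 complex), prr1 (a stress transcription factor) and mug65 (spore wall assembly) had 6 reads each. The 3 longest were intron 1 of SPAC1639.01c (elo1, a fatty acid elongase) with 57 reads at 837 nt, intron 3 of SPBC660.16 (gnd1, phosphogluconate dehydrogenase) with 20 at 817 nt and intron 2 of prr1 at 756 nt. Intron 1 of rad25, a 14-3-3 protein gene, reached 115 reads at 717 nt. The long introns of wtf7 and wtf15, with 480 and 58 reads, and the short ones of wtf14, with 19 and 9, belong to a family of closely similar genes, and how reads with several matches were counted was not stated.

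Among lists of genes grouped by name, that of the cytosolic ribosomal proteins had more short and long introns together than any other list. The 4 short introns of cytosolic ribosomal protein genes had a median of 103.5 reads and the 13 long ones a median of 33, against 22857 for the 29 introns of 80 to 200 nt in that list. Above the medians of all introns of their class were 2 of the 4, 7 of the 13 and 24 of the 29. On the short side rps29 and rpl2702 led, and intron 1 of rpl8, of 66 nt, had 11 reads. On the long side rps1001 and rps27 led, and intron 1 of rpl702 and of rps502 had 11 reads each. The paralogs rpl2501 and rpl2502 both appeared on the long side, with 33 reads at 240 nt and 236 at 268 nt.

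The other lists were small on both sides, and genes of like function whose names did not match were left out. Their medians hold for the matched introns alone. In the ubiquitin and proteasome list, the 4 short introns had a median of 179 reads and the 5 long ones 39, against 1172 for its 33 introns of 80 to 200 nt. Its short members ran from 1195 reads in ubp5 and 353 in ubc4 to 5 in rbx1, with rpn10 also at 5, and its long members from 1334 in ubc7 to 12 in rpt4, a proteasome ATPase gene. That list took pop5 by name, although it encodes an RNase P subunit. The small GTPase and vesicle list had medians of 15 reads in 5 short and 113 in 5 long introns, against 933 in 31. On its short side apm1 led with 54 reads, ypt5 had 18 and sec231 had 5. On its long side vps902 and sec22, the gene of a SNARE, had 255 each and rho1, a GTPase of cell wall synthesis, had 24. The list did not take in trs33, whose long intron had 1851. The transcription list had medians of 128 and 75.5 reads in 2 introns each, against 2490.5 in 18, with 242 in rpc19, 14 in rpb4, 143 in taf5 and 8 in rpb5. It did not take in tbp1, the TATA-binding protein gene, whose long intron had 306.

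The respiratory chain and mitochondria list had medians of 9 reads in 4 short introns and 12 in 6 long ones, against 1268 in 35. The highest of these matched introns were tim11 with 18 and atp3 with 11 on the short side, where tim17 had 6. On the long side they were atp1 with 52 and SPAC24C9.06c (aconitate hydratase) with 20, while tom20 had 6. Introns with more reads were left out by name matching. Among them were SPAC589.04 (mtx2, a metaxin) with 273 and oxa101 with 33 on the short side. On the long side they included SPCC306.08c (malate dehydrogenase) with 59 and kgd2 with 53. The splicing list had medians of 45.5 and 20.5 in 4 introns each, against 410 in 33. Name matching brought in lsm1, of the mRNA decapping complex, with 236 reads and srp68, of the signal recognition particle, with 83, while the U1 and U2 factors usp105 and uap2 had 8 and 7. On its long side prp19 had 28, saf1 26 and cyp1 9. The 5 short introns of the meiosis and mating list had 5 to 11 reads (mug179 11, mug65 10, mug8 5) and its 1 long intron, in mug65, had 6, against a median of 219.5 in 32. The cytoskeleton list had 4 short introns with a median of 13, led by cdc4 with 39 and by spc3, a signal peptidase gene taken by name, with 16, and with dad4 lowest at 5. It matched no long intron by name, and its 16 others had a median of 274.5. Name matching left out the long introns of klp3, a kinesin-like protein gene, with 17 reads and of end3, an actin patch gene, with 13. It also left out the short ones of vrp1 (verprolin) with 13, dlc2 (dynein light chain) with 12 and fim1 (fimbrin) with 9. In these lists the short and long introns had a lower median than the introns of 80 to 200 nt, as over all introns.

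In 20 genes a listed intron under 80 nt stood beside a listed intron of 80 to 200 nt, and in all 20 the intron of 80 to 200 nt had more reads (100%, exact binomial 95% interval 83.2 to 100). The highest intron of 80 to 200 nt had a median of 51.1 times the reads of the short intron (95% interval of the median 13.8 to 117.5), with medians of 9 reads in the short introns and 812.5 in the others. The comparison held in all 20 genes also for the lowest intron of 80 to 200 nt, and per length in 19 of 20. In mbx1, a MADS-box transcription factor gene, intron 2 of 67 nt had 6 reads against 12465 in intron 3 of 151 nt. In arp3, of the actin-nucleating Arp2/3 complex, intron 4 of 65 nt had 10 reads against 12025 in intron 3 of 95 nt. The other large ratios were in SPAP27G11.12 with 7 against 4288, rbx1 with 5 against 1543 and SPAC11E3.10 with 26 against 5935. The smallest were in ric8 (SPBC3E7.04c) with 13 against 17, tim11 with 18 against 34, fra2 with 585 against 1515, cds1 (the replication checkpoint kinase) with 98 against 370, and spc3 with 16 against 211.

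On the long side, 33 genes allowed the comparison, and the highest intron of 80 to 200 nt had more reads in 31 (93.9%, 79.8 to 99.3). The median ratio was 35.0 (12.1 to 190.3), with medians of 30 reads in the long introns and 2093 in the others. With the lowest intron of 80 to 200 nt instead, it had more reads in 30 of 33. There SPBC1D7.01 (pfd1) joined the exceptions, with 45 reads in the long intron against 44. Per length, the highest intron of 80 to 200 nt stood above in 97.0% of the genes. Intron 3 of duc1 (SPCC594.01), of 322 nt, had 9 reads against 94897 in intron 2 of 99 nt. Intron 4 of osh6 (SPCC23B6.01c), an oxysterol binding protein gene, had 59 reads at 334 nt against 71960, intron 2 of loc1 (SPAC1751.04), a pre-ribosomal factor gene, 13 at 395 nt against 13936, and intron 3 of gnd1 20 at 817 nt against 19443. The fifth was intron 4 of SPNCRNA.659 with 422 reads at 206 nt against 175833 in intron 5. Even intron 1 of pex7, among the highest of the long side, had 1521 reads against 144205 in its intron 2 of 129 nt. Both exceptions to the comparison with the highest intron had low counts beside them. In ric8, intron 1 of 239 nt had 198 reads against 17 in intron 3, which does not equal an intron of the reference annotation. In SPAC1B3.01c, a uracil phosphoribosyltransferase gene, intron 1 of 221 nt had 9 reads against 5. The next smallest ratios were in scs22 with 17 against 19, SPAC15A10.06 with 7 against 9, and par1, a PP2A regulatory subunit gene, with 66 against 112.

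**Figure D3:**
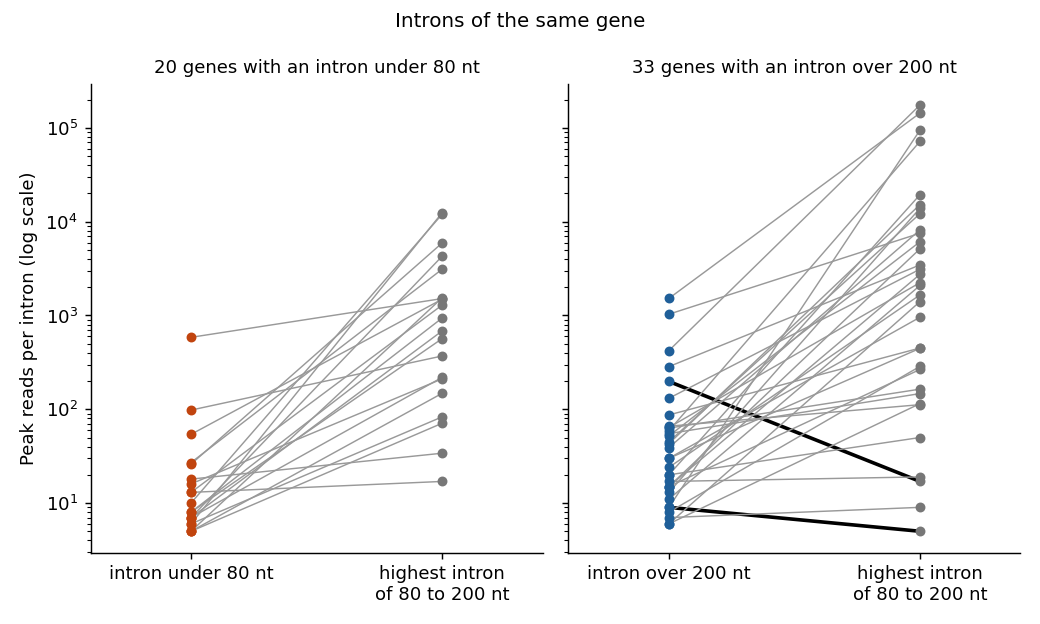
Peak reads (vertical axis, log scale) of the member intron, left, and of the highest intron of 80 to 200 nt of the same gene, right, for 20 genes with an intron under 80 nt and 33 with an intron over 200 nt. Each line is 1 gene, and the thick black lines mark ric8 and SPAC1B3.01c, where the long intron had more reads. All other lines rise to the right.

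In 5 genes both a short and a long intron were listed. In ckb1, the regulatory subunit of casein kinase 2, intron 1 of 79 nt and intron 2 of 205 nt had 154 and 159 reads, with overlapping counting intervals. In ubc4 intron 1 of 79 nt had 353 reads and intron 2 of 371 nt had 19. In rmt1, an arginine methyltransferase gene, intron 1 of 78 nt had 27, intron 2 of 266 nt had 131 and intron 3 of 168 nt had 3117. In mug65 intron 3 of 76 nt had 10 and intron 2 of 272 nt had 6. The genes of the short members hold 245 reference introns under 80 nt, of which 102 were listed, while 20 of their 23 introns of 80 to 200 nt were. The genes of the long members hold 156 reference introns over 200 nt, all listed, and 39 of their 42 introns of 80 to 200 nt were. Those 102 short and 156 long introns are the members by which the genes were chosen. Their shares are raised by that choice and do not measure how often such introns were listed. Over all genes 2.69% of short and 45.6% of long reference introns were listed.

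Features outside the length rule were counted for both sides. Among members that equal a reference intron, the intron was the first of its gene in 53 of 102 short ones (52.0%) and 100 of 156 long ones (64.1%), against 513 of 1001 introns of 80 to 200 nt (51.2%). As annotated, the first intron made up 65.5% of all mRNA introns over 200 nt, so the listed share of the long side was close to the annotated one. Under 80 nt it made up 44.0%, less than among the short members. There 3.17% of first introns (exact interval 2.38 to 4.13) and 2.31% of later ones (1.71 to 3.04) were listed, with overlapping intervals. Introns in 5′ untranslated regions made up 4.90% of the short and 7.69% of the long members, against 1.70%. Of all annotated mRNA introns they made up 1.45% under 80 nt and 8.19% over 200 nt, against 1.97%, so the long members were close to the annotation. The larger share among the short members rests on 5 introns. Under 80 nt, 5 of 55 annotated introns in 5′ untranslated regions were listed (exact interval 3.02 to 20.0%) and 95 of 3698 in coding regions (2.08 to 3.13%). These intervals overlap, and lengths were not matched. The 12 long ones included those of mpg1 (a cell wall precursor enzyme) with 464 reads, vps902 with 255 and cdc13, the mitotic cyclin, with 115. The median GC content was 29.9% on the short side and 31.3% on the long side, against 30.0%. The 5′ splice site GTAAGT opened 34.3% of short and 46.9% of long introns, against 36.2%, and AAG closed 17.1% of short and 6.25% of long introns, against 8.76%. These are counts without a test.

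Small RNAs lay inside 5 long introns and no short one. They were snoZ4 in intron 4 of SPNCRNA.659 with 422 reads, snoZ15 in intron 3 of SPBC1D7.01 (a prefoldin gene) with 45, snoU24b in intron 2 of cpc2 (the ribosome-associated RACK1 protein) with 43, snoR38 in intron 1 of SPAC29A4.02c with 23 and snR48 in intron 1 of rps3 with 15. The 5 listed introns of 80 to 200 nt that hold such an RNA had 53961 to 305702 reads. In SPNCRNA.659 the introns with snoZ8, snoZ7 and snoZ3, of 162, 183 and 177 nt, had 83031, 137088 and 175833 reads, so the 206-nt intron of the same transcript stood far below its neighbours. Whether reads came from the circle or from the small RNA was not tested.

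Branch reads, which cross the joint of the lariat, were found for 42 of 105 short introns (40.0%, exact interval 30.6 to 50.02) and 14 of 160 long introns (8.75%, 4.87 to 14.2), against 704 of 1027 introns of 80 to 200 nt (68.5%, 65.6 to 71.4). The share of the long side was also lower within each of 3 ranges of peak reads. These ranges are broad, and peak reads within a range were not matched between the classes. With 5 to 49 peak reads, 22 of 72 short introns (30.6%) and 6 of 100 long introns (6%) had branch reads, against 49 of 142 (34.5%). With 50 to 499 peak reads, it was 13 of 26 short (50%) and 3 of 47 long introns (6.38%), against 159 of 286 (55.6%). With 500 to 5999, it was all 7 short and 5 of 13 long introns (38.5%), against 312 of 400 (78%). The exact intervals of the long side lay below those of introns of 80 to 200 nt in all 3 ranges, and those of the short side overlapped them in the 2 lower ranges and held 78% in the highest.

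In counts pooled over introns, branch reads relative to peak reads were most frequent on the short side. Introns under 80 nt with branch reads had 490 of them on 17600 peak reads, or 27.8 per 1000, and introns over 200 nt had 36 on 6326, or 5.69 per 1000, against 21062 on 8534078, or 2.47 per 1000, for introns of 80 to 200 nt. The medians per intron were 62.3 per 1000 on the short side and 24.2 on the long side, against 4.01. Only introns with branch reads enter these medians, so an intron with few peak reads must show a high ratio. Median peak reads of these introns were 37 on the short side and 84.5 on the long side, against 1966. The order of the ratio medians is therefore not a like comparison, and ratios at matched peak reads were not computed. With introns without branch reads included, the pooled values were 24.5 on the short side and 1.298 on the long side, against 2.28. The long side then stood below and not above the class of 80 to 200 nt. Pooled values give most weight to introns with many peak reads. The 10 highest held 80.8% of the reads of the short side, 62.5% of the long side and 42.1% at 80 to 200 nt. The pooled values are therefore not matched for peak reads either. Intron 1 of SPCC1827.03c had 127 branch reads, intron 2 of rps29 had 92, intron 2 of ubp5 45, intron 1 of SPCC1450.10c 37 and intron 3 of apm1, a clathrin adaptor gene, 31. In intron 1 of rpl3602 the 22 branch reads exceeded its 18 peak reads, and in intron 3 of SPAC3H5.11 both counts were 7. The same held for 5 of the 704 introns of 80 to 200 nt, so peak reads are not a total that includes every branch read.

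The branch of short introns lay close to the 3′ splice site. The distance, counted by the file as the bases between the 7-nt sequence and the intron end, had a median of 10 nt (95% interval 9 to 10, range 6 to 13) in 42 short introns, against 11 nt (10 to 11, range 5 to 91) in 704 introns of 80 to 200 nt. The shortest, 6 nt, were in intron 2 of cdc4, a myosin light chain gene, with 5 branch reads and in intron 1 of tim11, an ATP synthase subunit gene, with 2. Of the 42 introns, 39 had a single listed position. In apm1, 23 reads lay at the sequence in capitals above and 8 at a second one, TTCTAAT, 6 nt further upstream. In scd1, 4 and 3 reads lay at copies of AACTAAC at 9 and 13 nt and 1 at an overlapping one. The sixth base, taken as the branch base, was A in all 42, the fourth was T in all 42, the third C in 32 and the fifth A in 37 and G in 5. TACTAAC led in 5 introns (11.9%), against 122 of 704 (17.3%).

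The 14 long introns with branch reads fell into 2 sets by branch distance. In 4 of the 14 it was 10 to 14 nt, in introns of 201 to 210 nt, namely those of SPCC830.09c, uvi15, alo1 and fps1 shown above. These 4 rested on few branch reads, with 2 each in uvi15 and fps1 and 1 each in SPCC830.09c and alo1. In the other 10, of 207 to 423 nt, the listed distance was 59 to 273 nt. A leading distance over 40 nt occurred in none of the 42 short introns and in 2 of 704 introns of 80 to 200 nt (0.284%). The median over the 14 was 97 nt, with an interval of 14 to 226 that spans both sets. The best supported was intron 1 of trs33, with 9 reads at TACTAAC, 104 nt from the end. Intron 2 of SPAC11H11.03c had 7 reads at ATCTAAT, 226 nt from the end, and intron 1 of pex7 had 4 at AACTAAA, 205 nt from the end, and a single one at TACTAAC, 12 nt from it. Intron 1 of rpl2501 had 2 at CTTAAAT, 101 nt from the end. In intron 1 of phb2 the leading GATGAAT at 93 nt was tied, with 1 read, with TGTTAAC at 13 nt. The other 5 rested on 1 read each, in intron 2 of hus5 (a SUMO-conjugating enzyme gene) at 59 nt, intron 3 of cct1 (a chaperonin subunit) at 77 nt, intron 1 of crm1 (the nuclear export receptor) at 111 nt, intron 1 of rho1 at 246 nt and intron 1 of SPCC306.08c (malate dehydrogenase) at 273 nt.

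The distance from the 5′ splice site to the branch base, which is the circumference of the circle, can be computed from these values as the intron length less the listed distance and 1. It had a median of 65.5 nt (range 48 to 70) in the short introns and 151.5 nt (range 84 to 197) in the long ones, against 103 nt (range 65 to 187) in introns of 80 to 200 nt. All 14 long introns with a branch position thus gave a value below 200 nt, although the introns themselves reached 423 nt. In the 10 with a distant position it was 84 to 166 nt, and in the 4 with a near position 186 to 197 nt. How the authors searched for branch positions, and whether the search was bounded, was not stated in the labels or files.

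**Figure D4:**
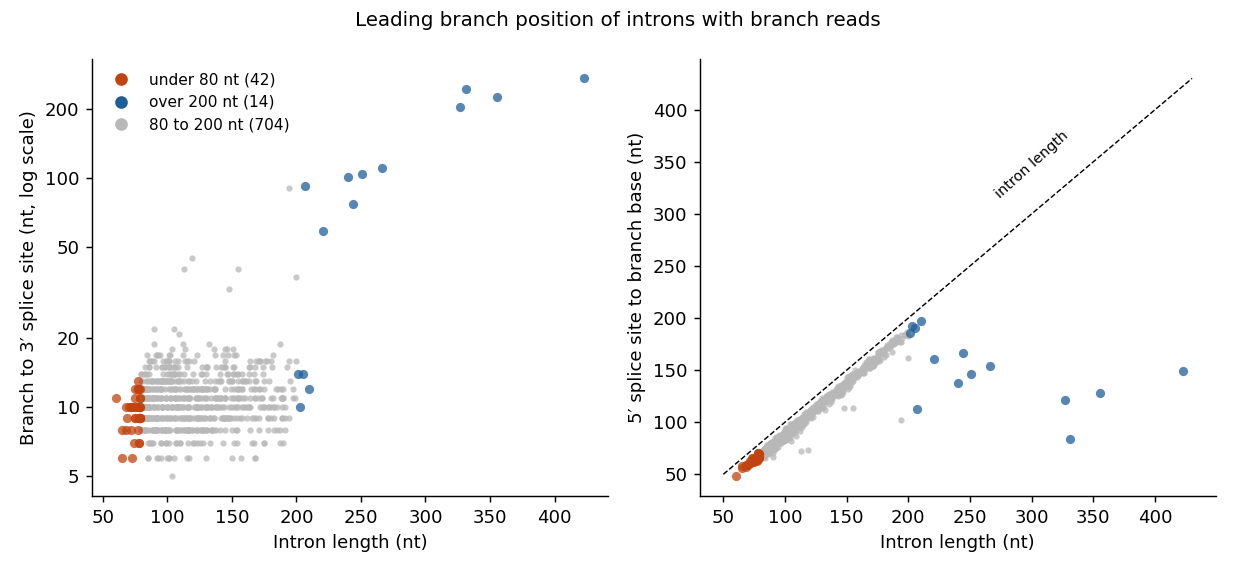
Left, distance of the leading branch sequence to the 3′ splice site (nt, log scale) against intron length (nt); right, length from the 5′ splice site to the branch base (nt) against intron length, with the dashed line at equal lengths. Points are single introns with branch reads, 42 under 80 nt, 14 over 200 nt and 704 in between. Long introns with distant branch positions lie on the right far below the dashed line, at 84 to 166 nt.

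Most long introns also carried a branch-like sequence near the end. CTAAC or CTAAT, searched on the intron strand alone and ending 5 to 20 nt before the 3′ splice site, was present in 56 of 105 short introns (53.3%, 43.3 to 63.1) and 137 of 160 long introns (85.6%, 79.2 to 90.7), against 763 of 1027 (74.3%, 71.5 to 76.9). Short introns with it had a median of 29.5 reads (17 to 61) and those without it 13 (10 to 20), while long introns had 29 (21 to 43) and 26 (15 to 48). Of the 10 long introns whose leading branch position was distant, 8 held the motif near the end as well. The exceptions were trs33 and phb2. The last 30 bases of trs33, without the motif, and of pex7 and SPAC11H11.03c, with it, are given for comparison with the interior windows above, in lower case throughout since no leading branch position lies in them.
trs33 intron 1, chr1:181750-181779, minus strand: cgagtaaccagaaagtaattgattgaacag
pex7 intron 1, chr1:4723346-4723375, plus strand: ttgtacatcgttactaacaatattcgctag
SPAC11H11.03c intron 2, chr1:4779668-4779697, minus strand: gtgttttatgactgtgctaattattgatag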

How the data were processed

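Circular RNA of pooled delta-dbr1 cells was sequenced after a short and a long gel run, and the intron and branch tables carry the name of the short run. The submitters' processing notes name Bowtie 0.12.3 and SAMtools, without their roles. The peak caller, its thresholds, the handling of strand and the build of the positions were not stated. Each intron peak has a raw count of reads, a whole number that was not normalized, and each branch position has a 7-nt sequence, a distance and a read count, as deposited by the authors (per the file headers). Of 1314 lines, 22 repeats were dropped, 19 of them over 200 nt. Positions were read in ASM294v3, where all 1292 introns ran from GT to AG and 1259 equalled a reference intron. Of 817 branch rows, 760 joined a listed intron, 4 of them by position, and each leading sequence lay at its stated distance.

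Only listed features are known, so the library depth is unknown. Read counts have exact Poisson 95% intervals, which cover counting error alone and treat reads as independent. Shares of introns or genes have exact binomial and medians exact order-statistic 95% intervals, which treat introns or genes as independent draws. None of these intervals covers variation between libraries. The interval of the median was tested on simulated data. Members, gene lists (matched by name) and the rule for named introns were chosen with earlier results of these data known. The rule took, on each side, the 10 introns with most and 5 with fewest reads, the shortest and longest, the most branch reads, extreme branch distances, the extreme within-gene ratios, and the 2 highest and 1 lowest of each list. The software was Python 3.11.15 with pandas 2.3.3, numpy 2.4.6, scipy 1.17.1, matplotlib 3.10.9 and Biopython 1.88. Alternatives changed the repeats, read minimum, length limits, matching and branch position.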

Additional observations from a re-analysis of the deposited data

Results flagged for a closer look

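Signals outside the listed annotated introns were found on both sides, and also at 80 to 200 nt. The branch table gave 108 branch reads in 39 introns under 80 nt that have no listed peak. Intron 4 of rmt1, of 78 nt, had 44 of these at TGCTAAC, and intron 2 of ask1, of 78 nt, had 10. The other 37 had 1 to 5 each. Over 200 nt there were 2 such reads, 1 in intron 1 of sap62 (316 nt, distance 172 nt) and 1 in intron 2 of lsm2 (352 nt, distance 277 nt), both at distant positions. In the comparison class of 80 to 200 nt, 16 introns without a listed peak had 104 branch reads, so such reads were not particular to either side.

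Most introns outside the annotation, 213 or 95.9%, were of 80 to 200 nt and had 527857 peak reads together. Under 80 nt, 3 such introns (1.35%) had 279 peak reads together and 68 to 119 each. The 6 over 200 nt (2.70%) had 367187 together. Of those reads, 364089 lay in a 336-nt intron of SPNCRNA.445 that the authors classify as a snoRNA intron. Those of SPSNORNA.21 with 1293 and SPSNORNA.16 with 400 are classified as intronic snoRNA, and whether reads came from the circle or from the small RNA was not tested. The other 3 had 51 to 1256. That table starts at 50 reads.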

How the results depend on the processing

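Of 37 alternatives, 25 stayed inside the 95% interval of the reported value and 12 did not. One alternative inside it, at least 2 branch reads for the median distance of the long side, was chosen after seeing the data. With at least 10 reads required, the short median was 35 reads, and the listed shares were 1.95% under 80 nt and 38.9% over 200 nt. Under 75 nt instead of 80 nt the median was 10 reads and the share of reads 0.0620%, and with the long limit raised by 25 nt the long share of reads was 0.117%. Without the highest intron, SPCC1827.03c on the short side and rps1001 on the long side, the shares of reads were 0.153% and 0.260%. With repeated lines kept, the long share was 0.306%. Branch reads per 1000 peak reads on the short side were 30.6 without SPCC1827.03c and 24.5 with all introns, and on the long side 1.298 with all introns. With at least 3 branch reads only 3 long introns were left, with a median distance of 205 nt. The within-gene shares stayed inside their intervals under all 3 alternatives on each side. No paired analysis was possible because there is 1 library. Counts near 5 carry intervals wider than many differences among the lowest introns.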
